A study of Mus musculus with 15 samples.

Results

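Testis-specific histone variants were followed as 7 genes, chosen by their symbols among the 32285 genes of the count files: the linker histone genes Hist1h1t, H1fnt and Hils1, the H2A and H2B genes Hist1h2aa and Hist1h2ba, and the H2A.L family genes H2al3 and H2al1m. All 7 were found in every library. Single-cell RNA-seq had been made from dissociated testes of adult male DBA/2J mice, 1 library per mouse from 1 testis, with 3 libraries in each of 5 groups. The T mice received JQ1, an inhibitor of BET bromodomain proteins, including the testis-specific BRDT, by intraperitoneal injection at 50 mg/kg daily for 3 wk, and their testes were taken at 10 wk of age. The VC-T mice had the vehicle (DMSO in (2-hydroxypropyl)-β-cyclodextrin) on the same schedule and the same age. The R mice had the same JQ1 course and were taken 6 wk after the last dose at 16 wk of age, with vehicle-treated VC-R mice of that age, and the untreated UC mice were 15 wk old. Since T and UC differ in age, treatment and age cannot be told apart in that comparison, and R and UC differ by 1 wk. The same 3 UC libraries served as the control of T and of R.

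During spermatogenesis the nucleosome histones of the spermatogonium are replaced stepwise, first by variants that enter chromatin in meiotic cells, then by variants of the elongating spermatid, and at last by transition proteins and protamines, which compact the sperm nucleus. Linker histones bind the DNA between nucleosomes, H2A and H2B pair as a dimer on the face of the nucleosome, and H2A.L proteins are short H2A variants of spermatids. BRDT binds acetylated histones in these cells. The assay primes on poly(A) tails, so histone transcripts that end in a stem loop without a tail are not counted.

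All 7 genes were annotated in GENCODE (GRCm38) as protein coding, with a single exon and 1 transcript each. Hist1h1t lies at chr13:23695814-23696725 on the plus strand, Hist1h2aa at chr13:23934462-23934851 on the plus strand and Hist1h2ba at chr13:23933773-23934156 on the minus strand. H1fnt lies at chr15:98255986-98257293 (minus), Hils1 at chr11:94967593-94968456 (plus), H2al3 at chrX:9849703-9850255 (plus) and H2al1m at chrX:9283764-9284298 (plus). Hist1h2aa and Hist1h2ba face away from each other with 305 bases between them. Hils1 lies inside the gene Sgca on the opposite strand and H2al1m inside Xk on the same strand, with 0 exon bases shared in either case. Reads from the intron of Xk would count toward H2al1m if they lie on its transcript, whereas Cell Ranger counts by strand, which keeps Sgca apart from Hils1.

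Counts of H2al1m were uncertain, because 83.7% of the 50-base windows of its transcript occur unchanged in exons of 12 other genes, among them H2al1b, H2al1g and H2al1k. In Hist1h2ba 38.2% of the windows are shared with 14 other genes, among them other H2B genes, and in Hist1h2aa 2.35% with 12 other genes. In Hist1h1t, H1fnt, Hils1 and H2al3 0% of the windows are shared.

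The 250 bases upstream of the RefSeq start (GRCm38.p6) were read for all 7 genes and searched on both strands for the TATA box letters TATAAA, for CCAAT as in the CCAAT box, for the octamer ATTTGCAT of histone promoters, for the core TGACGT of a cAMP response element and the full element TGACGTCA, and for the GC box letters GGGCGG. Among 32851 promoters of this length, TATAAA occurred in 12.4%, CCAAT in 33.9%, ATTTGCAT in 1.60%, TGACGT in 6.47%, TGACGTCA in 1.55% and GGGCGG in 32.7%. Any TGACGTCA also counts as TGACGT. The sequences shown are those of an early pair that is read from a common region, of the linker histone of spermatocytes, and of the 2 late X-linked genes. They are written 5′ to 3′ on the plus strand, which is the coding strand of the gene named, with matches in capitals.
Hist1h2aa: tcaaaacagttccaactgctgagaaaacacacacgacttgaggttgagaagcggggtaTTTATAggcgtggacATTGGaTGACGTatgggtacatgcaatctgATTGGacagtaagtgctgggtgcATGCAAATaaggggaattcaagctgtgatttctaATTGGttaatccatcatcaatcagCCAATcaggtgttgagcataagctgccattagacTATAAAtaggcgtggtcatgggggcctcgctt
Hist1h1t: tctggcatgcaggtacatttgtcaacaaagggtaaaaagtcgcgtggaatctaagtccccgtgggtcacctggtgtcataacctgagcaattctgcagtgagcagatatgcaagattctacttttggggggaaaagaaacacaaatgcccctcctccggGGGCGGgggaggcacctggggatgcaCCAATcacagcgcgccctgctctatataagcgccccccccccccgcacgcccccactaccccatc
H2al3: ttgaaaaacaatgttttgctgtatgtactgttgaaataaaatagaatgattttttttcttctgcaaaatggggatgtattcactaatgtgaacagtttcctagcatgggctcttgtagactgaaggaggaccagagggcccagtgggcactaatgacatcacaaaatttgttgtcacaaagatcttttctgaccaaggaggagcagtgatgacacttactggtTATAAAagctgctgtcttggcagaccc
H2al1m: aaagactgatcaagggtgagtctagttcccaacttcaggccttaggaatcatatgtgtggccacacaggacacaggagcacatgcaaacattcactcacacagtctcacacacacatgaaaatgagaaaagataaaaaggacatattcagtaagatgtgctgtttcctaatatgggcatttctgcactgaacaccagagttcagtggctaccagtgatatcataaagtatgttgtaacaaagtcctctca
The first is chr13:23934187-23934436, the second chr13:23695561-23695810, the third chrX:9849453-9849702 and the fourth chrX:9283514-9283763. The Hist1h2aa sequence, most of which is also upstream of Hist1h2ba, held 4 CCAAT, 2 TATAAA, 1 ATTTGCAT and 1 TGACGT matches, one TATAAA beginning 32 bases before the Hist1h2aa start. Hist1h1t had 1 CCAAT match beginning 65 bases before its start and 1 GGGCGG match, H2al3 had 1 TATAAA match 27 bases before its start, and Hils1 had 1 CCAAT match. No match was found for H1fnt or H2al1m. These matches describe letters and say nothing about binding.

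A total of 72362 cells was kept, with 9673587 to 98724982 unique molecular identifiers (UMIs, each 1 counted RNA molecule) per library and medians of 2364 to 4138.5 UMIs per cell. Clusters of cells were named from fixed markers. Every marker of a named class was higher in its class than outside it, which is no separate check, since these markers named the clusters. They gave 2088 spermatogonia-like cells, 16961 spermatocyte-like cells, 21052 spermatid-like cells and 25224 spermatozoa-like cells, the last being late spermatids by their transcripts. T had 3, 2 and 7 spermatozoa-like cells, against 1716 to 2198 in UC, so T was not tested in that class. VC-T 1 stood apart from VC-T 2 and VC-T 3: it had 1 spermatozoa-like cell of 5499 germ cells, where the others had 977 and 1527, and its H2al3 level in spermatid-like cells was 29.3 CPM, against 248 and 240 CPM. The study left this library out of its tests, and results with VC-T are given with and without it. The largest overlap of cell barcodes between any 2 libraries was 46, or 0.554% of the smaller one. Levels are CPM, the UMIs of a gene summed over the cells of a class in a library and scaled to a fixed total, and they are not compared between genes, since CPM is not a measure per length.

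In UC the members fell into an early group and a late group (see the plot of levels by class and library). Hist1h2aa, a testis H2A, was at 545 ± 83.7 CPM (SD, n = 3, as for all such values) in spermatogonia-like cells and 79.2 ± 8.56 CPM in spermatocyte-like cells, and 0.817 and 1.06 CPM in the later classes. Hist1h2ba, the H2B it pairs with, was at 112 ± 9.87 CPM, 86.0 ± 13.0 CPM, 0.827 CPM and 0.478 CPM in the same order. Hist1h1t, the linker histone of pachytene spermatocytes, was at 187 ± 11.6 CPM in spermatocyte-like cells, and at 11.7 CPM before and 6.65 CPM after. These are descriptions, because the classes were drawn from the same cells.

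The late members had their highest levels after meiosis. Hils1, a spermatid linker histone, was at 1824 ± 191 CPM in spermatid-like and 1398 ± 60.0 CPM in spermatozoa-like cells. H1fnt, a linker histone found at one pole of the spermatid nucleus, was at 597 ± 47.2 CPM and 1696 ± 34.5 CPM. H2al3 was at 220 ± 23.6 CPM and 406 ± 5.29 CPM, and H2al1m at 101 ± 9.51 CPM and 186 ± 29.2 CPM. Thus the level of Hils1 was higher in spermatid-like cells in each UC library, and the levels of H1fnt, H2al3 and H2al1m were higher in spermatozoa-like cells.

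**Figure D1:**
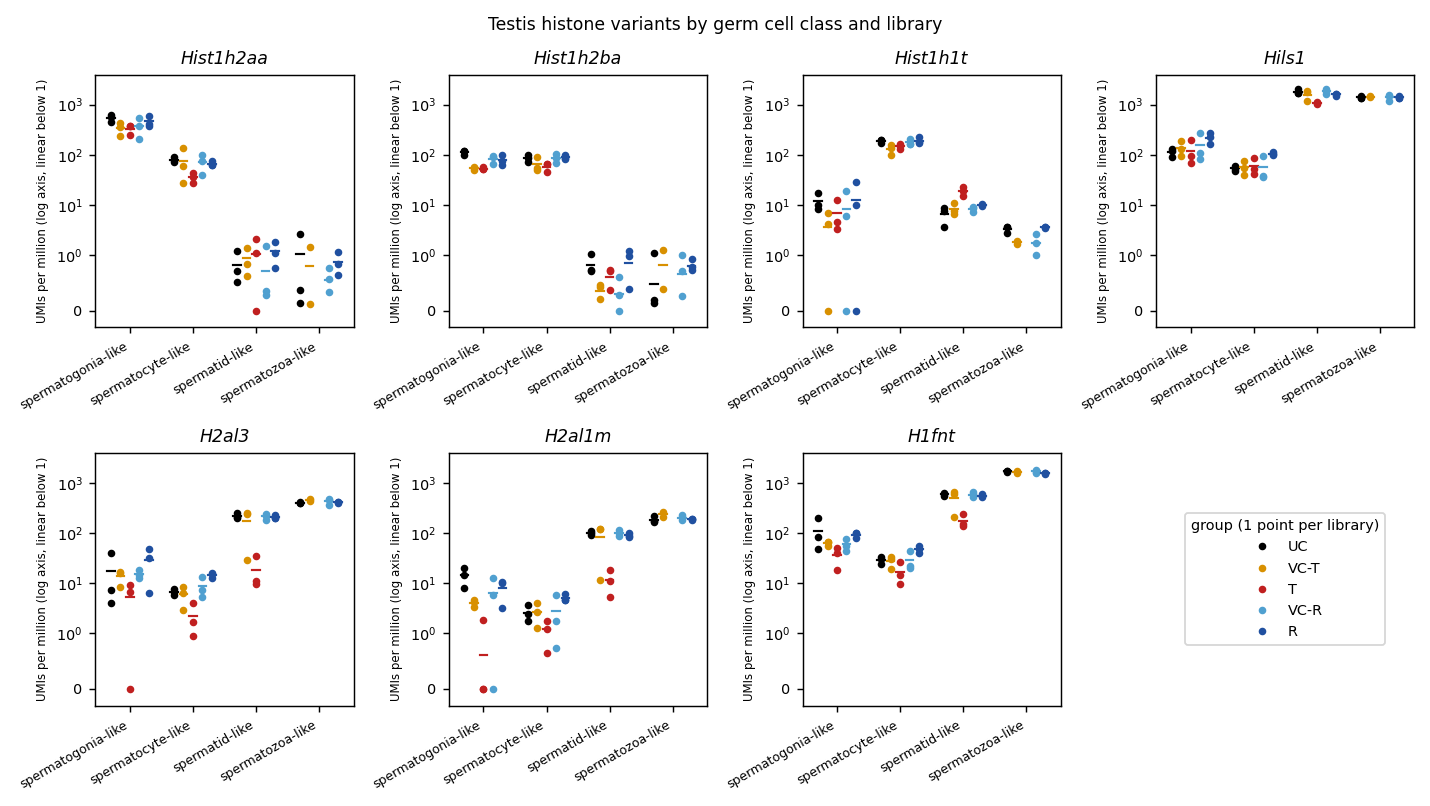
CPM of each of the 7 genes (1 panel each, vertical axis linear near 0 and logarithmic above) in the 4 germ cell classes (horizontal axis) and the 5 groups (colours), with 1 point per library holding at least 10 cells of the class and a horizontal bar at the group mean. Hist1h2aa and Hist1h2ba are high in the 2 earlier classes, Hist1h1t in spermatocyte-like cells, Hils1, H1fnt, H2al3 and H2al1m in the 2 later ones, and the T points of H2al3 in spermatid-like cells, 9.5 to 35.5 CPM, lie below the UC points, 203 to 247 CPM.

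Transcripts of the late members were also counted in cells that should lack them. In UC interstitial cells (Leydig-like and macrophage-like, 21, 10 and 34 cells) H1fnt was at 1213, 104 and 139 CPM and Hils1 at 621, 208 and 191 CPM. Most of the UC 1 value came from a macrophage-like cluster of 12 cells, all of UC 1, with a median of 11189.5 UMIs and the meiotic gene Rad51ap2 among its leading genes. Whether these were doublets with germ cells was not tested. In the 9 other interstitial cells of UC 1, a choice made after seeing the data, H1fnt was at 69.1 CPM (1 UMI), Hils1 at 345 CPM (5 UMIs) and H2al3 at 69.1 CPM (1 UMI). H2al3 had 2 UMIs in UC 3 (34.7 CPM), and its 0 UMIs in UC 2 allow up to 156 CPM (3 UMIs). In UC spermatogonia-like cells H1fnt was at 201, 48.8 and 85.3 CPM and in spermatocyte-like cells at 30.3, 24.4 and 33.0 CPM. Without the cluster above, these lay below the interstitial level of the same library except for UC 1 spermatogonia-like cells, and values of late members in the 2 early classes are read here as background, with few interstitial UMIs behind that reading. Sertoli-like cells of UC held H1fnt at 934, 640 and 300 CPM and those of R at 662, 598 and 524 CPM, so the gene's level there overlapped its level in UC spermatid-like cells, 546 to 640 CPM. The clusters of this class were unlike each other. In those with Clu and Ctsl among their leading genes, H1fnt was at 23.5, 133 and 78.3 CPM over 29, 21 and 24 UC cells. In another it was as high as 1997 CPM over 25 UC cells, so the class level is not that of all Sertoli-like cells.

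Along pseudotime, an order of the germ cells in 30 bins from spermatogonia-like to spermatozoa-like cells, each member had 1 main peak. In UC libraries Hist1h2aa peaked in bins 1 to 2, Hist1h2ba in bin 2 and Hist1h1t in bin 3, where its level was 394 ± 31.5 CPM. Hils1 peaked in bin 20 at 3414 ± 294 CPM, H2al3 in bins 20 to 22 at 758 ± 29.4 CPM, H2al1m in bins 20 to 23 at 318 ± 54.7 CPM and H1fnt in bins 23 to 25 at 2153 ± 88.4 CPM. Bin 20 held 355 UC cells, 100% of them spermatozoa-like. The peak of Hils1 thus lay in that class, although its level over the whole class was higher in spermatid-like cells. Among the late members Hils1 was ahead in its rise, with 1506 CPM over the UC cells of bin 14, where H2al3 was at 9.04 CPM and H1fnt at 140 CPM.

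In VC-R and R each member peaked within 1 bin of the UC range. In T the early members also peaked in bins 1 to 3, but the late members were highest in the last bins the T cells reach: bin 16 for Hils1, H2al3 and H2al1m and bins 16 to 17 for H1fnt. Peaks in T were 159 ± 36.0 CPM for H2al3, 83.9 ± 6.14 CPM for H2al1m, 673 ± 95.6 CPM for H1fnt and 1975 ± 56.2 CPM for Hils1. UC bins 9 and 17 held cells of few UMIs, with medians of 1224.5 and 1237, against 5565 in bin 16, and the profiles step there.

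**Figure D2:**
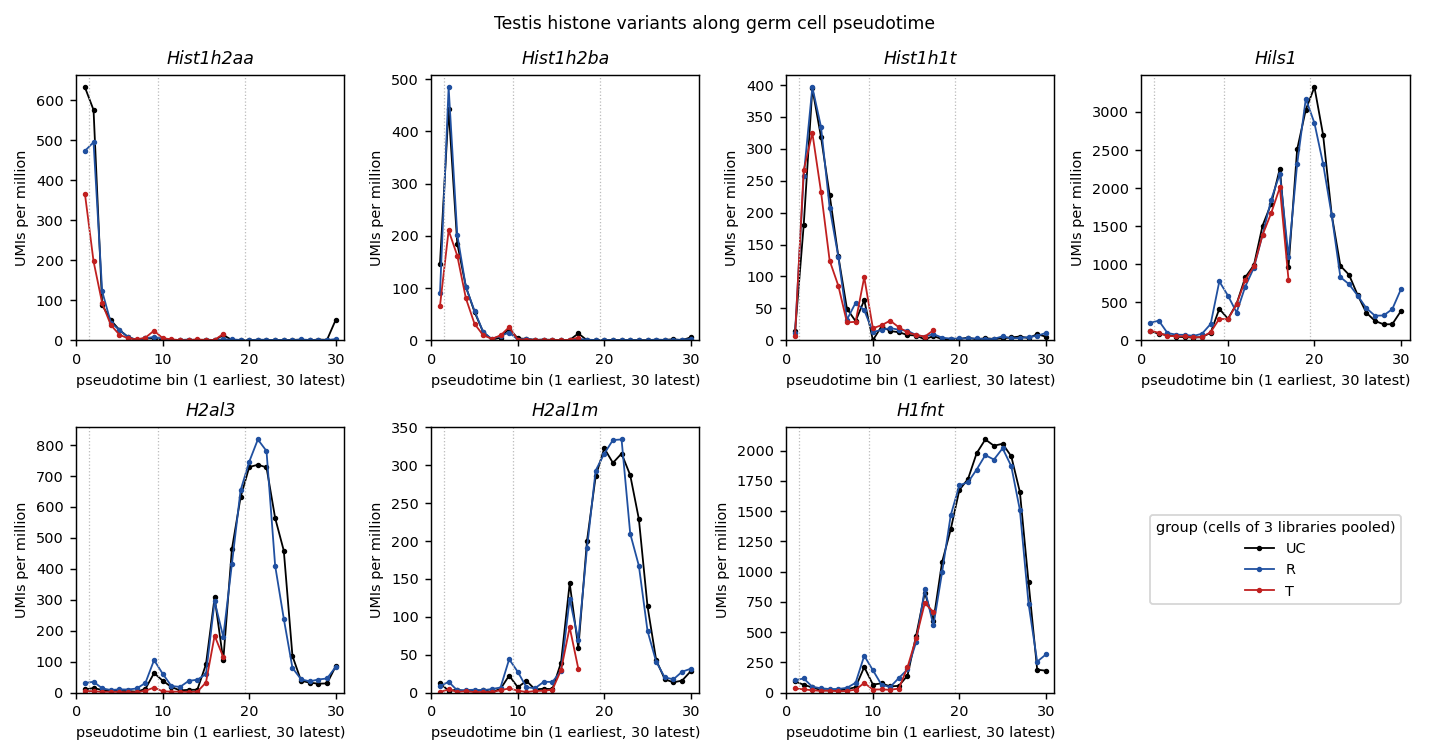
CPM of each member (1 panel each) over 30 pseudotime bins, for the pooled cells of UC, R and T (lines, bins with at least 20 cells), with dotted lines at the borders between classes. The UC and R lines of Hils1, H1fnt, H2al3 and H2al1m rise over bins 14 to 16, Hils1 having begun to rise earlier. They step down at bin 17 and have their highest points in bins 19 to 25, while the T lines end at bin 17.

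Across the 30 UC bins, the profiles of H2al3 and H2al1m correlated at r = 0.974, Hist1h2ba and Hist1h2aa at r = 0.912 and H1fnt and H2al1m at r = 0.901, on log CPM. These values describe bins that share libraries and depth. Among 8572 genes compared, the profile closest to Hils1 was that of Tmco2 (r = 0.991), the closest to H1fnt that of Cst8 (r = 0.989) and the closest to H2al1m that of 1700122H20Rik (r = 0.972). For H2al3 Prss55 was closest (r = 0.954), for Hist1h2ba Rnps1 (r = 0.949), for Hist1h2aa Uimc1 (r = 0.929) and for Hist1h1t 4921525O09Rik (r = 0.924).

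The comparison of T with UC asks which transcripts differ at the end of JQ1 treatment. It was made per class on the summed UMIs by edgeR's quasi-likelihood test with Benjamini-Hochberg adjustment over all genes tested in the class, and calls needed an adjusted p below 0.05 together with a log2 fold change beyond 1 in either direction. In spermatid-like cells 5 of the 7 members had enough UMIs to be tested, and all 5 were called, 4 lower and 1 higher in T. In that class 16.9% of all 13276 genes tested were called, 14.3% lower and 2.65% higher, and 44.4% passed the adjusted p alone. The median log2 fold change of the 5 was -2.01 and that of all genes 0.03. Hist1h2aa (23 UMIs in T, 11 in UC) and Hist1h2ba (10 and 11 UMIs) were too low to test.

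H2al3, a spermatid H2A.L gene, was at 35.5, 11.1 and 9.5 CPM in T 1 to T 3 and at 211, 247 and 203 CPM in UC 1 to UC 3. The groups did not overlap, as for 56.2% of all genes tested in the class. Here and below, such shares over all genes in a class were taken on CPM scaled as in the test (TMM). The levels and overlaps of the members are on plain CPM. T was 12.8-fold lower (log2 fold change -3.67 ± 0.32 (SE), adjusted p = 1.05e-06). H2al1m, of the same family, was at 18.1, 11.1 and 5.28 CPM in T and 91.5, 110 and 99.7 CPM in UC. It was 9.5-fold lower (-3.25 ± 0.24, adjusted p = 2.63e-07), again with every T library below every UC library. T 1 had the highest level of both genes among the T libraries.

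H1fnt was at 243, 151 and 138 CPM in T and 605, 640 and 546 CPM in UC, 4.04-fold lower (-2.01 ± 0.17, adjusted p = 9.74e-07). Hils1 was at 1119, 1086 and 1026 CPM in T and 1692, 2043 and 1737 CPM in UC, 2.06-fold lower (-1.04 ± 0.09, adjusted p = 9.32e-07). Neither gene's groups overlapped, and Hils1 had the smallest change of the 4 that fell. The call of Hils1 is at the edge of the fold threshold: it was -0.94 without UC 2 and -0.996 without T 3, both with an adjusted p under 0.05, and the ratio of the plain CPM means was -0.76 on the log2 scale. On plain CPM the median gene of this class lay 0.29 higher in T, a shift that the TMM scaling of the test removes.

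Hist1h1t, the spermatocyte linker histone, moved the other way in spermatid-like cells, at 15.0, 22.5 and 18.6 CPM in T and 7.54, 3.61 and 8.78 CPM in UC. Every T library lay above every UC library, and the level was 2.23-fold higher (1.16 ± 0.26, adjusted p = 0.00272). The fold fell to 0.90 on the log2 scale without UC 2 and to 0.997 without T 2, below the threshold. In interstitial cells Hist1h1t had 3, 0 and 1 UMIs in UC 1 to UC 3 and 0 in T 1 and T 3, and over all cells of a library it was higher in T than in UC, as given below. The part of free RNA in the call was not tested.

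Shares of cells showed the same order. With each cell thinned to 1000 UMIs, 3.32%, 1.24% and 1.27% of spermatid-like cells of T and 17.3%, 16.9% and 14.6% of those of UC had a UMI of H2al3. For H1fnt the shares were 18%, 12.9% and 12.4% in T and 41.8%, 38.6% and 33.5% in UC. An exact permutation test (two-sided) had p = 0.10 for each, the smallest that 3 against 3 libraries allow. For Hils1 the shares were 60.0 ± 0.62% in T and 74.1 ± 4.45% in UC (exact permutation p = 0.10), against 12.7% and 18.6% in the interstitial cells of T 1 and T 3 (16 and 15 cells). Over the classes, 10 of the 15 member and class pairs tested by edgeR had no overlap between T and UC in these shares, where 36.6% of all such gene and class pairs had none. In R against UC it was 9 of 21, with 39.1% of all pairs.

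The share of interstitial cells with H2al3 was 0% in T 1, which allows up to 120 CPM (3 UMIs), and 11.9% in T 3 (2 UMIs), so at this depth the T shares of H2al3 over the whole class could not be told apart from background. In UC, without the cluster of UC 1 described above, it was 11.1% in UC 1 (1 UMI), 0% in UC 2 and 3.39% in UC 3, against 14.6% to 17.3% in spermatid-like cells. The share with H1fnt was 8.31%, 13.1% and 13.0% in these UC cells and 46.4% in UC 1 with that cluster. Median depths before thinning were 1412, 1335 and 1296.5 UMIs in these cells, against 4309, 5400.5 and 4151 UMIs in UC spermatid-like cells.

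The stage mix within the class differed between the groups. When UC spermatid-like cells were divided at the quartiles of pseudotime into 4 windows, the first held 52.6 ± 3.22% of the T cells and the last 1.27 ± 0.67%, against 24.1 ± 6.88% and 26.4 ± 2.17% in UC. With 297 cells per library, the same number from each library in every pseudotime bin, H2al3 was the single member still called (-1.21 ± 0.19, adjusted p = 1.87e-05). H2al1m was at -0.82 ± 0.25 (adjusted p = 0.0265) and Hils1 at -0.23 ± 0.06 (adjusted p = 0.0154), below the fold threshold. H1fnt (-0.18, adjusted p = 0.165) and Hist1h1t (0.24, adjusted p = 0.692) did not pass the test. The share of all genes called in the matched fit is not reported here.

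Within single windows H2al3 was called in each of the 4, at log2 fold changes of -2.38, -2.09, -1.16 and -2.12. The share of all genes called within a window is not reported here. Hils1 was at -0.19, -0.22 and -0.41 in the first 3 and at -2.17 in the last, where the median gene was at -0.48. H1fnt was called in the first (-1.62) and the last (-1.48) and was at -0.25 and -0.37 between them. In the first window H2al3 was at 34.2, 9.63 and 9.33 CPM in UC and at 6.30, 0.37 and 0.67 CPM in T, and in the second at 55.6, 32.2 and 29.5 CPM in UC. H1fnt in the first window was at 138, 28.9 and 50.0 CPM in UC and at 34.0, 13.6 and 17.4 CPM in T, with overlap. Levels of this size were also counted in UC interstitial cells, and the part of free RNA in these calls was not tested. In the third window H2al3 was higher, at 263, 274 and 283 CPM in UC and 171, 93.2 and 111 CPM in T. The last window held 43, 11 and 8 cells of T 1, T 2 and T 3, and T 3 was dropped from that fit for having under 10 cells. There H2al3 was at 200 and 233 CPM in T 1 and T 2, from 12 and 3 UMIs, and at 437, 554 and 516 CPM in UC. H1fnt was at 831 and 467 CPM in T 1 and T 2, from 50 and 6 UMIs, and at 1065, 1191 and 1187 CPM in UC. These plain CPM lie closer together than the scaled fold changes of that window, so its calls rest on few UMIs and on the scaling.

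In bin 16, with 167, 54 and 22 cells of the T libraries, H2al3 was at 200, 135 and 141 CPM in T and at 289, 320 and 317 CPM in UC. H2al1m there was at 86.1, 88.7 and 77.0 CPM in T and 128, 134 and 169 CPM in UC. For both genes every T library lay below every UC library in this bin. Over the whole class 56.2% of the genes tested did not overlap, and that share was not computed for single bins. H1fnt was at 783, 625 and 565 CPM against 799, 832 and 845 CPM, and Hils1 at 2021, 1993 and 1912 CPM against 2077, 2439 and 2303 CPM, closer between the groups but still without overlap. In bin 17, which holds the low-UMI cells described above, the groups overlapped: H2al3 was at 127, 93.8 and 111 CPM in T (77, 42 and 27 cells) and 142, 66.0 and 106 CPM in UC (22, 24 and 74 cells). H1fnt, at 611 to 711 CPM in T and 460 to 627 CPM in UC, and Hils1, at 583 to 882 CPM and 791 to 1380 CPM, overlapped there too.

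**Figure D3:**
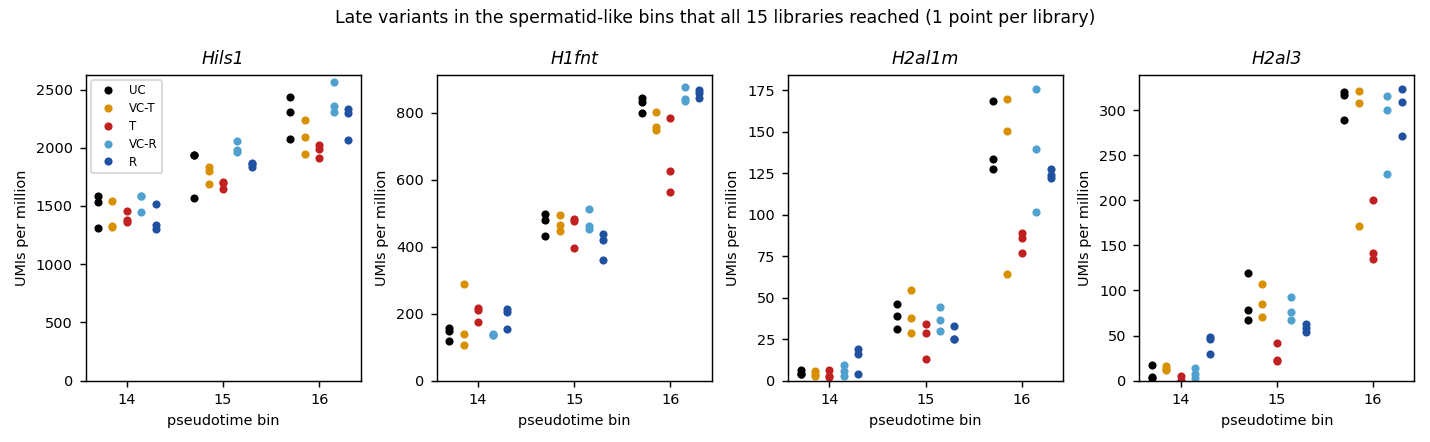
CPM of Hils1, H1fnt, H2al1m and H2al3 (1 panel each, vertical axis) in pseudotime bins 14, 15 and 16 (horizontal axis), with 1 point per library and a colour per group. In bin 16 the T points of H2al3, 135 to 200 CPM, lie below the UC points, 289 to 320 CPM, and VC-T 1 at 171 CPM lies among the T points.

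With VC-T 2 and VC-T 3 as the controls, which share the age and schedule of T, the same 5 members were called in spermatid-like cells, with log2 fold changes of -3.87 for H2al3, -3.57 for H2al1m, -2.14 for H1fnt, -1.06 for Hils1 and 1.06 for Hist1h1t. With all 3 VC-T libraries none was called, and the edgeR values were -3.50, -3.17, -1.79, -0.84 and 0.92 (adjusted p = 0.12 each), though all 5 had an unadjusted p under 0.05. VC-T 1 decides that result. How many of all genes were called in these vehicle fits is not reported here.

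In spermatocyte-like cells 6 members were tested and 2 were called lower in T, Hist1h2aa and H2al3, where 3.94% of 12195 genes were called, 2.01% lower. At the adjusted p alone 5 of the 6 passed, against 11.3% of all genes. Hist1h2aa was at 43.6, 27.8 and 36.2 CPM in T and 77.9, 71.4 and 88.4 CPM in UC (-1.22 ± 0.13, adjusted p = 2.40e-05). Hist1h2ba was at 65.2, 44.7 and 64.2 CPM in T and 72.1, 87.8 and 97.9 CPM in UC (-0.66 ± 0.13, adjusted p = 0.00372), below the fold threshold. Neither pair of groups overlapped, as for 29.8% of the genes tested. The cells of the class lay in different clusters: the one with the highest UC levels of both genes (Hist1h2aa at 1006 CPM, Hist1h2ba at 567 CPM) held 0.634 ± 0.127% of the T and 13.4 ± 4.49% of the UC spermatocyte-like cells. Matched on pseudotime, with 318 cells per library, Hist1h2aa was at -0.33 (adjusted p = 0.179) and Hist1h2ba at -0.58 (adjusted p = 0.00143).

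Hist1h1t was at 152, 131 and 161 CPM in spermatocyte-like cells of T and 195, 193 and 174 CPM in UC. Each T library was lower than each UC library, by 1.33-fold (-0.41 ± 0.08, adjusted p = 0.00249), which is below the fold threshold. Against VC-T 2 and VC-T 3, at 136 and 99.5 CPM, the direction turned (0.22, adjusted p = 0.26). Over all cells of a library it was higher in T, at 95.6, 93.7 and 102 CPM, than in UC, at 56.8, 46.4 and 50.0 CPM. In T spermatocyte-like cells were 55.2% to 57.6% of germ cells, in UC 12.6% to 16.8%.

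H2al3 was at 4.10, 0.96 and 1.71 CPM in spermatocyte-like cells of T and at 6.67, 5.92 and 7.82 CPM in UC (-1.59 ± 0.40, adjusted p = 0.0175), and the call was lost without T 3, without UC 1 or without UC 3. H1fnt, at -0.86 (adjusted p = 0.0405), was below the fold threshold and Hils1 was at 0.08 (adjusted p = 0.846). These levels are of the size read as background above, from few interstitial UMIs. The summed CPM of spermatozoa markers in interstitial cells was 399 and 281 in T 1 and T 3, which had such cells. In UC it was 11163, 883 and 1962, or 5804 in UC 1 without the cluster described above. The part of this in the difference was not tested. In spermatocyte-like cells 4 of the 5 transition protein and protamine genes were also called lower, among them Tnp2 at -3.45 and Prm2 at -4.96.

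In spermatogonia-like cells 4 members were tested and 2 were called lower in T, with 1.14% of 7017 genes called, 0.656% lower. At the adjusted p alone 3 of the 4 passed, against 1.62% of all genes. Hist1h2ba was at 50.9, 52.4 and 56.3 CPM in T and 100, 118 and 117 CPM in UC, 2.20-fold lower without overlap, as for 15.9% of the genes tested (-1.14 ± 0.25, adjusted p = 0.00647). Vehicle-treated mice of the same age were at the level of T, with 49.9, 57.0 and 53.3 CPM in VC-T 1 to VC-T 3, and the difference of T from VC-T 2 and VC-T 3 was -0.14 (adjusted p = 0.876). DESeq2 gave -1.14 with an adjusted p of 0.13, and the call was also lost without UC 3 (-1.11, adjusted p = 0.0701). Hist1h2aa was at 373, 251 and 367 CPM in T and 562, 618 and 453 CPM in UC (-0.72 ± 0.15, adjusted p = 0.0053), below the fold threshold.

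H1fnt, called in spermatogonia-like cells at -1.32 ± 0.36 (adjusted p = 0.0459), was at 50.9, 18.2 and 39.7 CPM in T and 201, 48.8 and 85.3 CPM in UC. The groups overlapped, and the call was lost without T 2, T 3, UC 1 or UC 3. Hils1 was at 0.13 (adjusted p = 0.923). Hist1h1t, H2al3 and H2al1m, with 10, 7 and 1 UMIs in T, were too low to test.

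The T difference was then compared between classes in 1 model. It differed between spermatid-like and spermatocyte-like cells for 5 members, where it did so for 20.7% of 15113 genes at an adjusted p under 0.05. The spermatid minus spermatocyte log2 fold change was -2.34 for H2al1m (adjusted p = 0.000298), -2.25 for H2al3 (adjusted p = 3.55e-05), -1.25 for H1fnt (adjusted p = 0.000444) and -1.22 for Hils1 (adjusted p = 0.000572). For Hist1h1t it was 1.40 (adjusted p = 0.00100), with T lower in one class and higher in the other. The test did not pass for Hist1h2aa (1.46, adjusted p = 0.0944) and Hist1h2ba (-0.21, adjusted p = 0.845).

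Genes with related roles moved in the spermatid-like cells of T as follows. Of the transition proteins and protamines, which take the place of the histones, 4 of 5 were called lower (median -5.04), with Prm2 at -5.78 and Tnp1 at -3.66, and Prm3 was at -0.89. Of the 19 other H2A.L and H2A.B genes 7 were tested and 5 called lower (median -1.19), among them H2al2a, a partner of transition proteins in spermatids (-3.07), and H2al1n (-3.12). H2afb3 was at 0.72 (adjusted p = 0.00343), below the fold threshold. Transcript sequence of other H2al1 genes is shared with H2al1m, as given above.

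Of the histone variants expressed in many tissues 0 of 11 tested were called by edgeR (median -0.17), with 5 at an unadjusted p under 0.05 and, at the adjusted p alone, 2 higher and 3 lower. H2afz, which was at 591 ± 36.2 CPM in T and 431 ± 116 CPM in UC, was at 0.46. Of 13 genes for histone acetylation and removal 1 was called lower, Cdyl (-1.21), and 1 higher, Pygo2 (1.11, at 2.69 and 1.23 CPM), with a median of 0.21. Chd5, a remodeller of spermatid chromatin, was at -0.68 and Brdt itself at 0.24 (adjusted p = 0.0524). Of the histone chaperones 0 of 12 tested were called by edgeR (median 0.19), with 6 at an unadjusted p under 0.05, and Asf1b was at -0.88 (adjusted p = 0.000686).

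The comparison of R with UC asks what remained 6 wk after the last dose. In spermatid-like cells 0 of 5 members tested were called by edgeR and 0 by DESeq2, where edgeR called 6.92% of 14806 genes, 6.83% higher, and 4 of the 5 had an unadjusted p under 0.05 with either tool. H2al3 was at 233, 204 and 203 CPM in R and 211, 247 and 203 CPM in UC, with overlap (-0.25 ± 0.10, adjusted p = 0.0606). H2al1m was at 101, 84.8 and 89.1 CPM in R (-0.34, adjusted p = 0.0177), H1fnt at 592, 535 and 557 CPM (-0.29, adjusted p = 0.0196) and Hils1 at 1666, 1649 and 1517 CPM (-0.38, adjusted p = 0.00474). Those 3 passed the adjusted p, as did 35.5% of all genes, but not the fold threshold. On plain CPM Hils1 alone of them did not overlap with UC. On the scaled CPM of the test 47.4% of the genes tested did not overlap, and overlap of the members was not read on that scale. On the plain CPM scale these 4 ratios were between -0.05 and -0.18, and the median gene was at 0.19.

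Matched on pseudotime, with 485 cells per library, the R differences of the 5 members lay between 0.02 and 0.13, with adjusted p from 0.648 to 0.976. The SE of H1fnt was 0.06 and that of H2al3 0.08 in that fit. With VC-R as the control 0 of the 5 were called, with Hils1 at -0.40 (adjusted p = 0.012). The R spermatid-like cells had fewer UMIs, with medians of 1498 to 2143 against 4151 to 5400.5 in UC.

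**Figure D4:**
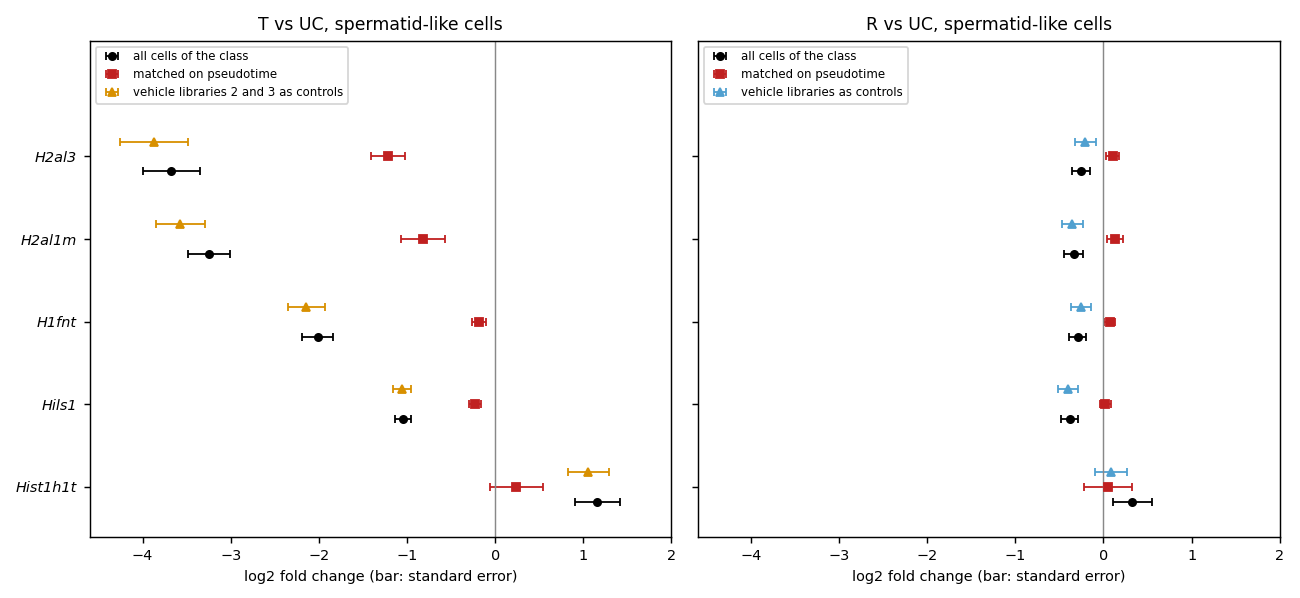
Log2 fold change (horizontal axis) of the members tested in spermatid-like cells, for T against UC (left) and R against UC (right), with bars of 1 SE, from the whole class, from cells matched on pseudotime and with vehicle-treated mice as controls. In T, H2al3 is at -3.67 over the whole class and at -1.21 in matched cells, while the matched values of R lie between 0.02 and 0.13.

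In spermatozoa-like cells, where R had 3139, 3337 and 4343 cells, 0 of 5 members tested were called in R, with 1.57% of 12628 genes called. None passed edgeR's adjusted p alone, where 10.4% of all genes did, DESeq2 called 0 as well, and 1 of the 5 had an unadjusted p under 0.05 with either tool. H1fnt was at 1577, 1599 and 1514 CPM in R and 1723, 1708 and 1657 CPM in UC, without overlap (-0.20 ± 0.07, adjusted p = 0.0593), as for 28% of the genes tested. H2al3 was at 422, 423 and 403 CPM in R and 408, 400 and 410 CPM in UC (-0.04 ± 0.07, adjusted p = 0.761). The log2 fold changes of Hils1 (-0.07 ± 0.07), H2al1m (-0.05 ± 0.07) and Hist1h1t (0.02 ± 0.22) were of the size of their SE or smaller.

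In spermatocyte-like cells of R 7 members were tested and 1 was called, H2al3, with 1.17% of 13724 genes called and 1.06% higher. It was at 12.5, 15.9 and 15.4 CPM in R and 6.67, 5.92 and 7.82 CPM in UC (1.03 ± 0.18, adjusted p = 0.00148), without overlap, as for 27.5% of the genes tested. Hils1 (0.88, adjusted p = 9.59e-06) and H1fnt (0.64, adjusted p = 0.00392) were higher below the fold threshold, where 4 of the 7 and 7.55% of all genes passed the adjusted p. The call of H2al3 was lost without R 2, R 3 or UC 2 (0.94 to 0.99), matched on pseudotime (0.97) and with VC-R as the control (0.65, adjusted p = 0.94). Of the transition proteins and protamines 4 of 5 were also higher at an adjusted p under 0.05, among them Tnp2 (0.76). Values of late genes in this class are read here as background, from few interstitial UMIs of UC, and whether free RNA differed was not tested. R had more such cells, 152, 202 and 263, with a summed CPM of spermatozoa markers of 2258, 2439 and 1895, but the members' levels in them were not used for this reading.

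The early members of R were close to UC. In spermatocyte-like cells Hist1h1t was at 225, 178 and 173 CPM in R (-0.01 ± 0.08, adjusted p = 0.95), Hist1h2ba at -0.01 (adjusted p = 0.969) and Hist1h2aa at -0.33 (adjusted p = 0.0351), below the fold threshold. In spermatogonia-like cells 0 of 4 members tested were called, with 0.113% of 6219 genes called and 0.193% past the adjusted p in edgeR, while DESeq2 called 0 and 1 of the 4 had an unadjusted p under 0.05 with either tool. Hist1h2ba was at 63.7, 76.2 and 101 CPM in R (-0.48, adjusted p = 0.598), and Hist1h2aa at 608, 381 and 416 CPM (-0.22, adjusted p = 0.753), both overlapping with UC. Hils1 was at 163, 270 and 226 CPM against 120, 89.5 and 129 CPM (0.93, adjusted p = 0.0545), and it was called without R 1 (1.08, adjusted p = 0.00984).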

How the data were processed

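UMIs per gene and cell were counted by the authors with Cell Ranger (mm10, STAR; version 3.0.0 in the labels, 7.0.0 in the file headers), and the deposited values are these raw counts. Ambient RNA correction and doublet removal came after these counts, so neither is in them. Whether introns were counted is not given in the sources used here. All libraries were processed concurrently by the authors, so no batch could be compared. The members and lists were chosen with earlier results of these data known.

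Cells with at least 500 genes, 1000 UMIs and under 30% mitochondrial UMIs were kept, and the 5.4% with the highest doublet score, computed from simulated doublets, were removed per library. Clusters (2000 variable genes, 30 components, 20 neighbours, Leiden resolution 1.2) were named from fixed markers. Pseudotime followed a curve through the germ cells. UMIs were summed per library and class for libraries with at least 10 cells and tested with edgeR 4.0.16 (R 4.3.3, TMM, edgeR's filter on low counts). DESeq2 1.42.0 was an alternative. Scripts were tested on simulated counts. With 1 library per mouse, replicates are mice. All 7 genes are described in every class and comparison. Genes most like a member were the 3 with the highest Pearson correlation of log2(CPM + 1) over 30 UC bins, among genes of at least 10 CPM, of which the closest is named. From other lists the members with small p and those a sentence needs are named. The low CPM values rest on few UMIs, and intervals were not computed for them. All 7 genes matched a RefSeq promoter.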

Additional observations from a re-analysis of the deposited data

Results flagged for a closer look

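The T difference was not the same in spermatid-like and spermatocyte-like cells for 5 of the members, tested as an interaction in 1 edgeR model with the library as a block. The spermatid minus spermatocyte log2 fold change was -2.34 for H2al1m, -2.25 for H2al3, -1.25 for H1fnt, -1.22 for Hils1 and 1.40 for Hist1h1t. The difference was thus more negative in spermatid-like cells for the 4 late members. In spermatocyte-like cells Hils1 was at 0.08, and H2al1m was too low to test in that class alone. Over all genes, 20.7% passed this test at an adjusted p under 0.05. The levels of the late members in spermatocyte-like cells are read as background, and T and UC differ in stage mix within both classes. The part of either in these differences was not tested.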

How the results depend on the processing

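In T against UC, the number of members called in spermatid-like cells (5) was 1 matched on pseudotime, 0 with all 3 VC-T libraries, and 2, 1 and 1 in the first 3 pseudotime windows of the class. Leaving out 1 library gave 3 to 5, the lowest without UC 2. In spermatocyte-like cells (2) it was 0 matched on pseudotime and 0 with all 3 VC-T libraries, and 1 to 3 when 1 library was left out. In spermatogonia-like cells (2) it was 0 with DESeq2, 0 matched on pseudotime, 0 with VC-T 2 and VC-T 3, 0 with all 3 VC-T libraries and 1 with cells of at least 2000 UMIs, and 0 to 2 when 1 library was left out. In R against UC, the count in spermatocyte-like cells (1) was 0 with all groups in 1 fit, 0 matched on pseudotime, 0 with VC-R and 0 to 2 when 1 library was left out. In spermatogonia-like cells (0) it was 1 without doublet removal and 0 to 1 when 1 library was left out. The cause of these shifts was not tested, beyond the smaller number of cells in the matched and window fits. Counts under the alternatives stand without the share of all genes called in the same fit. In spermatid-like and spermatozoa-like cells R had 0 members called under each alternative run. Without thinning, the number of member and class pairs whose libraries did not overlap in the share of cells with a UMI went from 11 to 16 of 21 in T and from 10 to 17 of 28 in R, while over all gene and class pairs with a UMI the share went from 23.3% to 29.4% in T and from 26.8% to 44.1% in R. Values of single members kept their side of the threshold, and their direction apart from shifts within 1 SE, in 265 of 316 values under the alternatives and in 193 of 216 without 1 library. They passed out of the threshold in 33 and 15 and into it in 5 and 3, and changed sign by more than 1 SE with no call made in 13 and 5. No called value changed sign. Replicate numbers did not pair the libraries, since the correlations of same-numbered libraries ran from -0.159 to 0.235, and a fit with the replicate number as a block left the counts at 2, 2 and 5 in T and 0, 1, 0 and 0 in R. Depth limits the early members after meiosis, where 11 UMIs each of Hist1h2aa and Hist1h2ba stood behind the UC value in spermatid-like cells.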

Other observations

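Values outside the comparisons follow, with no test. Of the UC UMIs of Hist1h1t, 92.2% came from spermatocyte-like cells, and of those of Hist1h2ba 88.5%. Hist1h2aa had 29.6% of its UC UMIs in spermatogonia-like and 66.2% in spermatocyte-like cells. Of the UC UMIs of H1fnt 76.3% came from spermatozoa-like cells, of H2al3 69.0% and of H2al1m 69.2%, whereas those of Hils1 were nearly even, with 49.8% in spermatid-like and 48.1% in spermatozoa-like cells. In T 83.3% of the H1fnt UMIs and 89.5% of the Hils1 UMIs came from spermatid-like cells. In the 12 spermatozoa-like cells of T, H1fnt was at 1154, 1693 and 1030 CPM and Hils1 at 2019, 847 and 1967 CPM, each from very few cells.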
